A study of Schizosaccharomyces pombe with 127 samples.

Results

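The mug genes of fission yeast (Schizosaccharomyces pombe) carry a name that stands for meiotically upregulated gene. They were taken as every gene whose symbol in the array's annotation is mug followed only by digits, which gave 91 of the 4929 features measured, each with 2 probes. The series measured messenger RNA in strains that lack 1 gene each, most of them a protein kinase gene, with nitrogen and after its removal. Cy5-labelled RNA of a strain was hybridised on a 2-colour array against Cy3-labelled RNA from a pool of wild type, so each level below is the log2 ratio of the strain to that pool, centred on the array median and averaged over the probes of a gene.

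The arrays used here comprise 62 deletion strains starved of nitrogen for 60 min and 63 deletion strains growing in log phase in minimal medium with nitrogen (0 min). A wild-type strain has 1 array at each time. For 62 deletion strains both times were measured, and hal4 has the 0 min array only. Most strains lack a kinase. The strains cyr1, cgs1, rst2 and atf1 lack other proteins: adenylate cyclase, the regulatory subunit of protein kinase A, a zinc finger transcription factor and a stress-response transcription factor. The labels give no mating type, ploidy or number of clones per strain, so whether any culture could enter meiosis cannot be stated. The strain is the unit of the tests, whose p-values measure only the spread between strains, and a value for a single strain has no replicate.

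The mug genes were named in a screen for genes whose transcripts rise during meiosis, and the class is defined by that timing rather than by a shared function. In fission yeast, nitrogen removal leads cells to arrest, mate and then enter meiosis, with the transcription factor Ste11 at the start of the mating and meiosis programme. Cyclic AMP, made by Cyr1, activates protein kinase A, which represses ste11 and the gluconeogenic gene fbp1, in part by inhibiting Rst2. In growing cells many meiotic transcripts are also removed by the RNA-binding protein Mmi1.

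Nitrogen removal was visible on average over the deletion strains. The 5 starvation genes isp6, urg1, urg2, dal2 and isp5 rose, with a median change of 4.58 on the log2 scale, and the median of 3 ribosomal protein genes, all of which fell, was -3.77. A strain's own deleted gene was at its lowest there for 47 of the 61 that could be checked at 60 min and for 52 of the 62 at 0 min. For 6 arrays at 60 min the label is in doubt, since the deleted gene was low at 0 min only (byr1, atf1, ppk22, cdk11, ppk33 and the strain labelled prk1). The array labelled byr1 held atf1 at -3.79, and that labelled atf1 held pap1 at -4.61. In cmk2 and ppk15 the deleted gene was lowest at 60 min only. From the other strains, cmk2 was at -0.90 at 60 min and -0.22 at 0 min (rank 13 of 63 from the lowest). The values for ppk15 were -2.78 and -1.20 (rank 3 of 63 at 0 min). For 8 strains (mug27, chk1, ppk38, hri1, mde3, spo4, srk1 and wis1) the deleted gene was lowest at neither time, so these arrays do not show the deletion their label states. Leaving out the 6 strains, or the 8, gave counts of mug genes past 2-fold of 6 higher and 1 lower, the same as with all strains. At 0 min, 9 pairs of arrays correlated below -0.3, with the lowest at -0.42, and the lowest correlation at 60 min was 0.65. The labels state the dyes, so the direction was kept.

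Most mug genes moved little within 60 min of nitrogen removal. With limma's paired fit over 62 strains and Benjamini-Hochberg adjustment over all 4929 features, 46 of 91 were higher and 23 were lower at an adjusted p under 0.05, and 22 did not pass. Over all features 46.9% were higher and 40.5% were lower by the same rule. The 23 include mug121, mug64, mug58 and mug2, whose 2 probes moved in opposite directions, as given below. Past a mean change of 2-fold, 6 mug genes rose (6.59%), against 7.53% of all features, and 1 fell (1.10%), against 8.76%. The share that rose by 2-fold was thus near the background.

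The median change of the mug genes was 0.09 on the log2 scale, with quartiles of -0.07 and 0.30. Over all features the median was 0.04, with quartiles of -0.31 and 0.39. A change within 0.5 of 0 was measured for 75 of the 91 mug genes (82.4%), against 61.6% of all features. That count holds mug64, mug58 and mug2, whose means join a probe that rose and a probe that fell. For mug64 the probes changed by 0.81 and -1.68. The 3 mug genes nearest to 0 were mug8 and mug95, both at 0.00, and mug37, at -0.01.

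**Figure D1:**
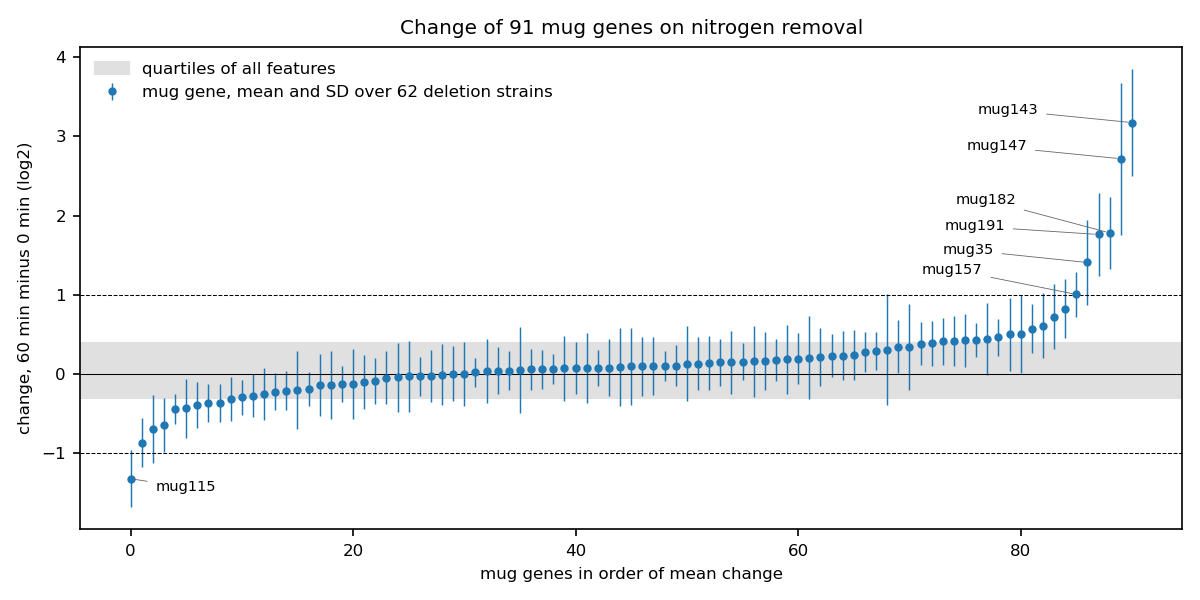
Mean change of each of the 91 mug genes (60 min minus 0 min, log2), in order of size, with bars for the SD over 62 deletion strains; the grey band spans the quartiles of all 4929 features and the dashed lines mark 2-fold. The 6 genes above the upper line reach 3.17, mug115 lies below the lower line at -1.32, and most others lie inside or close to the band.

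Other lists of meiotic genes also held few past 2-fold, but the balance of higher and lower differed between the lists. Of 18 meu genes, named from another search for meiotic transcripts, 5 rose and 6 fell, 0 of them rose by 2-fold, and the median was 0.01. Of 81 genes that are known by another symbol but hold a mug name as a synonym, 34 rose and 26 fell, 5 of them rose by 2-fold, and the median was 0.05. Among 14 measured regulators of meiosis 3 rose and 5 fell, none by 2-fold. The fallers included ste11 at -0.72, pat1, the kinase that blocks meiosis, at -0.47, and mmi1 at -0.35.

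Genes of recombination and cohesion numbered 19, of which 7 rose and 4 fell. The 2 that passed 2-fold were dmc1, a meiotic recombinase, at 1.22, and rec14, which is needed for meiotic recombination, at 1.13. The mug gene of that list, mug20, a component of meiotic linear elements, rose by 0.42. Of 12 genes of spore formation 5 rose and 3 fell, none by 2-fold. Of 18 mating genes 11 rose and 4 fell, and 2 rose by 2-fold: ste7 at 1.57 and mam3 at 1.20. The shares of all features given above, 46.9% higher and 40.5% lower at adjusted p alone and 7.53% higher by 2-fold, apply to these lists as well. These lists were chosen with earlier results of these data known.

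The gene mug143 showed the largest rise of the 91. Its level at 60 min was 0.95 in the lowest deletion strain, 3.15 in the median and 4.18 in the highest, against -0.67, -0.09 and 0.77 at 0 min. All deletion strains at 60 min lay above all at 0 min, which held for 1.7% of all features and for no other mug gene. The mean change was 3.17 ± 0.68 (SD, n = 62; limma adjusted p = 1.2e-45). Its neighbour dbs2, which overlaps it in the current annotation, had a mean change of 0.32.

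The gene mug147 followed, with a wider spread between strains. It had a level of 0.45 in the lowest strain at 60 min, 2.60 in the median and 4.38 in the highest, against -1.64, -0.01 and 1.08 at 0 min. The ranges overlapped, but each of the 62 strains was higher at 60 min than at 0 min. The mean change was 2.72 ± 0.96 (SD, n = 62; limma adjusted p = 1.1e-32), smallest in the strain labelled chk1 at 0.52 and largest in that labelled mde3 at 5.20. Both labels are among the 8 whose deleted gene is not low, and without those 8 strains the mean change was 2.74.

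A similar mean change was measured for mug182, which encodes a predicted NAD(P)H-hydrate epimerase, an enzyme that repairs damaged nucleotide cofactors, and for mug191. Levels of mug182 spanned 0.74 to 2.91 at 60 min with a median of 1.87, against -1.03 to 1.07 with a median of 0.07 at 0 min. Those of mug191 spanned 0.45 to 2.53 at 60 min with a median of 1.80, against -1.10 to 0.61 with a median of -0.01 at 0 min. Both were higher at 60 min in every strain with both arrays. The change was 1.78 ± 0.45 for mug182 (SD, n = 62; limma adjusted p = 9.1e-41). For mug191 it was 1.76 ± 0.53 (SD, n = 62; limma adjusted p = 8.4e-37), and 57 of 62 strains were at least 2-fold higher at 60 min.

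The genes mug35 and mug157 closed the group past 2-fold. For mug35 the levels were 0.47, 1.60 and 2.35 at 60 min (lowest, median and highest), against -0.81, 0.22 and 0.86 at 0 min. The change of mug35 was 1.41 ± 0.54 (SD, n = 62; limma adjusted p = 1.3e-30). For mug157 they were 0.52, 1.24 and 1.75 at 60 min, against -0.27, 0.23 and 0.56 at 0 min.

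The level of mug157 varied least of the 6, and its change of 1.00 ± 0.29 (SD, n = 62; limma adjusted p = 3.5e-37) lies at the threshold, with 30 of 62 strains past 2-fold. Just outside lay mug33, which encodes a membrane protein with a role in exocytosis and cell polarity, at 0.82, mug30 at 0.72, mug135 at 0.61 and mug168 at 0.57. In mug33, 60 of 62 strains were higher at 60 min.

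**Figure D2:**
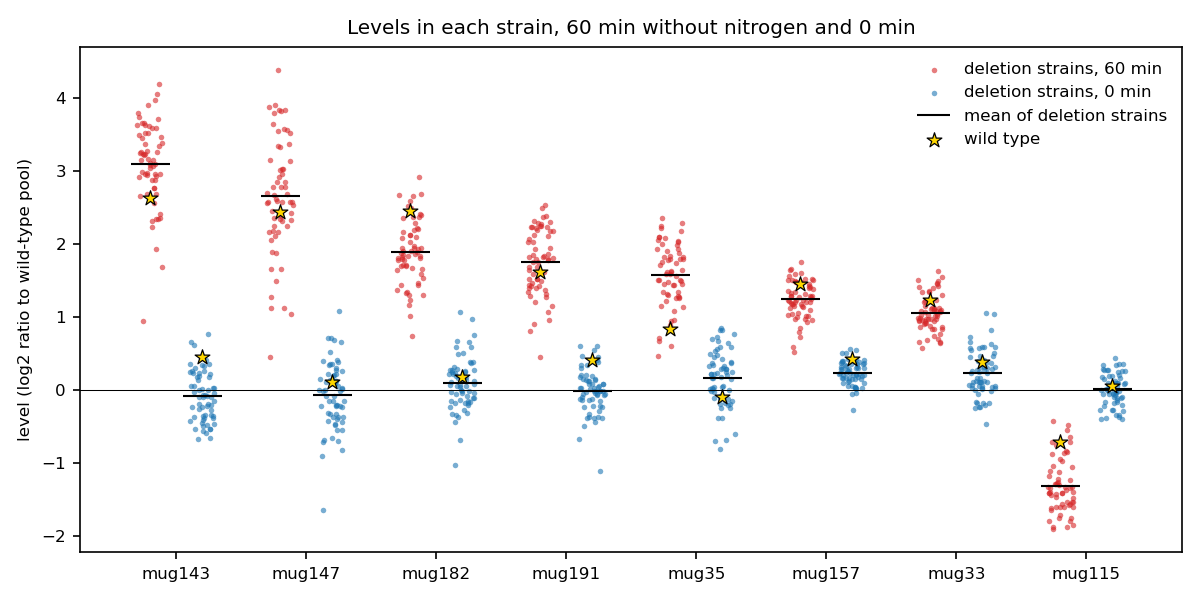
Level of 8 mug genes (log2 ratio to the wild-type pool) in each deletion strain, at 60 min in red on the left and at 0 min in blue on the right of each gene, with the mean as a bar and the wild-type array as a star. For mug143 all red points lie above all blue points, for mug115 all lie below, and the other 6 genes overlap in part.

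The size of the rise differed between strains, and for each of the 6 genes it tended to be larger where a strain's overall response was larger. As a description over 62 strains, the change of mug143 correlated with the strain's overall response size at r = 0.74. That size is the slope of a strain's changes on the mean changes over 796 features, and it spanned 0.65 in cyr1 to 1.20. The other 5 gave r of 0.67 for mug157, 0.65 for mug147, 0.59 for mug191 and mug35 and 0.51 for mug182. Without cyr1 and ppk22, the strains with the smallest slopes, r lay between 0.52 for mug182 and 0.73 for mug143. Values of r for other risen features are not given here, so these do not set the 6 genes apart. A gene that rises may follow this slope because both come from the same arrays, which was not tested.

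In ppk22, which is among the arrays with a doubted label, the change of mug143 was 0.60 and that of mug35 was 0.10. In the strain labelled chk1 mug147 changed by 0.52 and mug157 by 0.43, beside a slope of 0.83, while chk1 itself was at -0.03 and 0.10 from the other strains at 60 min and 0 min. In levels at the same time, over 59 strains without cyr1, cgs1 and rst2, the mug genes most like mug143 were mug191 (r = 0.68 at 60 min and 0.60 at 0 min) and mug35 (r = 0.66 and 0.61). Of the 12 genes next to the 6 risers, 9 were measured, and their changes lay between -1.49 and 0.57, so none of these 9 rose by 2-fold. A risen neighbour was found for 13.5% of all genes, 14.3% of all mug genes and 26.9% of all risen genes. With only 6 risers, a count of 0 does not set them apart from these shares.

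A single mug gene, mug115, fell by 2-fold on average. Its level was -1.90 in the lowest strain at 60 min, -1.38 in the median and -0.42 in the highest, against -0.40, 0.03 and 0.44 at 0 min. The times did not overlap, which held for 4.48% of all features in the downward direction. The mean change was -1.32 ± 0.36 (SD, n = 62; limma adjusted p = 7.0e-39). Only the second probe carried this fall: it changed by -2.48 and the first by -0.16. In the current annotation mug115 overlaps the gene SPAC56F8.13.

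The next lowest mean was that of mug111, for which both probes fell, by 0.94 and 0.80 on the log2 scale. Its level was -1.13, -0.66 and 0.01 at 60 min (lowest, median and highest strain), against -0.38, 0.25 and 0.76 at 0 min. The ranges overlapped, yet each of the 62 strains was lower at 60 min, and 21 of them by at least 2-fold. The mean change was -0.87 ± 0.31 (SD, n = 62; limma adjusted p = 1.0e-31). Wild type, at -0.66 at 60 min and 0.15 at 0 min, was close to the median strain.

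The probes of other mug genes with a negative mean change disagreed too. A difference of at least 1 between the changes of the 2 probes was found in 6 mug genes (6.59%), against 3.79% of all features. For mug121 the first probe rose by 0.81 and the second fell by 2.11, and for mug64 they moved by 0.81 and -1.68. For mug58 they moved by 0.57 and -1.16, for mug2 by 0.34 and -1.23, and for mug114 by -0.18 and -1.21. In all 6 genes the second probe was the lower.

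Which probe reports the transcript was not tested, and the direction of mug121, mug64, mug58 and mug2 is therefore not settled by these values. The risers differed less between probes. The first and second probe gave 2.78 and 3.57 for mug143, 2.94 and 2.50 for mug147, 2.10 and 1.47 for mug182, and 1.90 and 1.63 for mug191. They gave 1.39 and 1.42 for mug35, and 0.89 and 1.11 for mug157, the only riser with a probe under 2-fold. Over the 91 genes both probes had the same sign in 70.

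**Figure D3:**
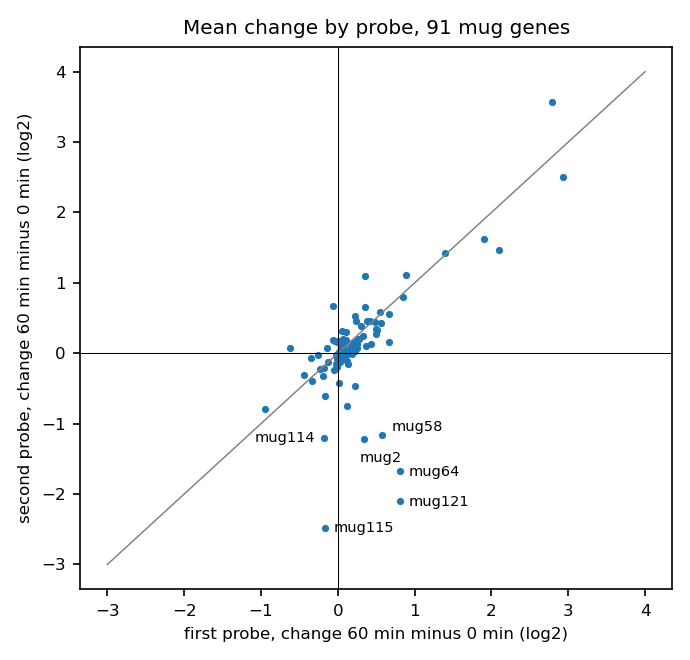
Mean change (60 min minus 0 min, log2) of the 91 mug genes by their first probe (horizontal) and second probe (vertical), with the line of equality. The named genes differ by at least 1 between probes, and all 6 lie below the line, from mug114 at -0.18 and -1.21 to mug121 at 0.81 and -2.11.

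In the cyr1 deletion, which lacks adenylate cyclase, 1 mug gene stood far above all other strains with nitrogen and without it. A gene was counted where the strain differed by at least 2-fold from the mean of the other deletion strains, in the same direction at both times. By that rule 1 of 91 mug genes was counted in cyr1 (1.10%), against 2.92% of all features. With 1 array per time there is no test. The gene is mug14, which encodes a protein of the adducin family.

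The level of mug14 in cyr1 was 6.47 at 60 min and 6.21 at 0 min. In the other deletion strains it averaged 0.44 ± 0.50 (SD, n = 61) at 60 min and -0.01 ± 0.51 (SD, n = 62) at 0 min. The difference of 6.03 at 60 min and 6.22 at 0 min corresponds to 65.3-fold and 74.7-fold, and cyr1 was the highest of all strains at both times. Both probes showed it, at 6.09 and 5.97 above the other strains at 60 min and 6.06 and 6.38 at 0 min. The transcript was thus high in cyr1 with nitrogen and without it.

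The arrays of cyr1, cgs1 and rst2 carry the last numbers of the series, so the array series and these genotypes cannot be told apart against the other strains. Set against the mean of cgs1 and rst2 alone, mug14 in cyr1 was 6.59 higher at 60 min and 7.30 higher at 0 min. By that comparison mug108 was also counted, at 1.22 and 1.47. Its level at 60 min was 1.27 in cyr1, 0.35 in cgs1 and -0.25 in rst2. At 0 min the levels were 0.50, -0.12 and -1.83, and that of rst2 was the lowest of 63 strains. The low rst2 values enlarge this difference, and against cgs1 alone it was under 2-fold at both times. The size of the mug14 value depends on the scale: after quantile normalization it was 3.87 at 60 min and 4.05 at 0 min.

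Other strains moved mug14 by less. The second highest level was in vps15, which lacks the kinase partner of the phosphatidylinositol 3-kinase, at 2.62 at 60 min and 1.87 at 0 min. That strain was also counted by the rule (0.446% of all features were). The strain atg1, which lacks the kinase that starts autophagy, had 2.23 at 60 min and 0.59 at 0 min. The strain rst2 had -0.05 at 60 min and -2.28 at 0 min, the lowest of 63 strains. At 0 min rst2 was the lowest strain for 59.3% of mug genes and 20.9% of all features, so this rank is not particular to mug14. The strain lsk1, which lacks a kinase of the RNA polymerase II tail, had -0.28 and -0.99. In cgs1 the levels were -0.18 and 0.11, and in wild type 0.38 and -0.28.

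Of 6 genes known to be repressed by protein kinase A, 5 were at least 2-fold above the other strains at both times in cyr1. The gluconeogenic gene fbp1 was 5.03 above them at 60 min and 5.75 at 0 min, and the hexose transporter gene ght3 was 4.18 and 5.43 above them. The others were mfm1, a mating pheromone gene, at 5.67 and 3.59, ste11 at 2.71 and 1.68, and gld1, for glycerol dehydrogenase, at 2.55 and 3.06. The invertase gene inv1 was 0.46 and 0.89 above them, under 2-fold. Over 59 strains without cyr1, cgs1 and rst2, the levels most like those of mug14 were found for SPCC1739.08C (r = 0.55 at 60 min and 0.77 at 0 min) and ght3 (r = 0.62 at both). The strain vps15, second highest for both mug14 and ght3 at both times, is among the 59, and its weight in these r was not tested. Among mug genes, ordered by the mean of r at the 2 times, mug143 (r = 0.31 and 0.62), mug150 (0.35 and 0.48) and mug147 (0.16 and 0.66) came first. On nitrogen removal mug14 itself rose by 0.44 ± 0.46 (SD, n = 62; limma adjusted p = 9.7e-11), in 52 of 62 strains.

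A smaller shift in cyr1, of at least 0.5 above the other strains at both times, was measured for 8 mug genes (8.79%), against 4.99% of all features. No mug gene was 0.5 below the others at both times, against 7.32% of all features, but mug132 lay just short of that cut, at -0.62 at 60 min and -0.499 at 0 min. Beside mug14 the 8 higher genes were mug182 (0.78 at 60 min and 0.99 at 0 min), mug184 (1.04 and 0.56), mug108 (0.85 and 0.58), mug123 (0.83 and 0.51), mug5 (0.55 and 0.78), mug168 (0.64 and 0.58) and mug178 (0.56 and 0.64). Their SD over the other strains lay between 0.16 (mug178) and 0.43 (mug182) at 60 min, and between 0.17 (mug178) and 0.40 (mug184) at 0 min. The 0 min array of cyr1 was the second widest, with an SD over its features of 0.51 against a mean of 0.33 over strains. The part of that width in these small shifts was not tested. For mug168 and mug178 cyr1 was the highest strain at both times. The median mug gene in cyr1 differed from the others by 0.03 at 60 min and 0.09 at 0 min, so the class as a whole was close to the other strains. Of the 81 genes that hold a mug name as a synonym, 1 was counted, tcg1, which encodes a telomere-binding protein, at 2.91 above the others at 60 min and 2.71 at 0 min.

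**Figure D4:**
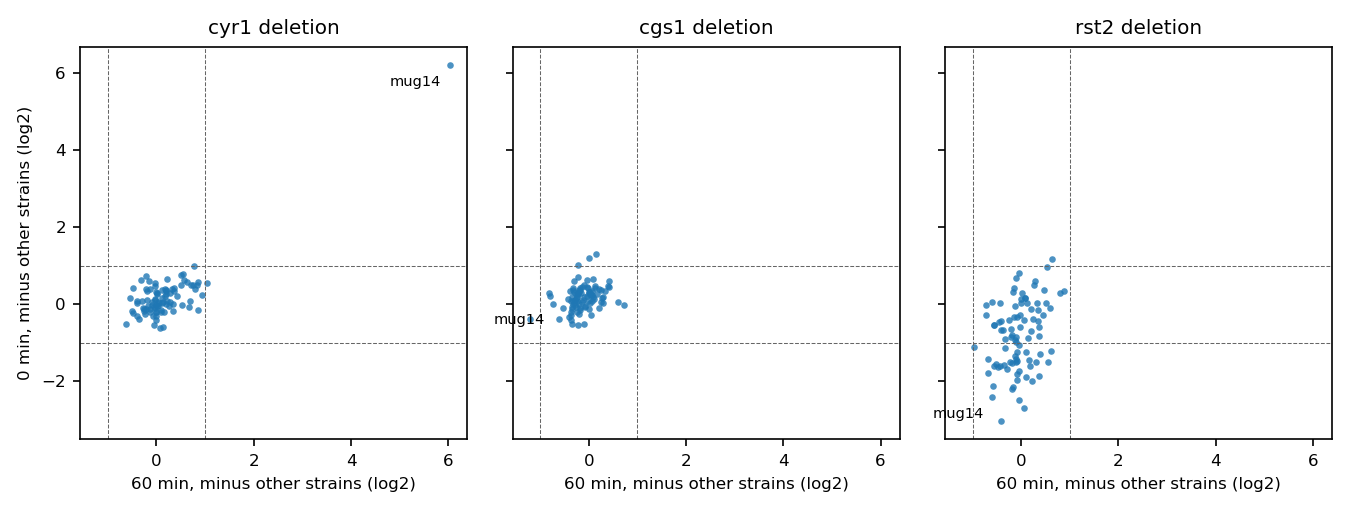
Difference of each mug gene from the mean of the other deletion strains (log2) at 60 min (horizontal) and 0 min (vertical) in cyr1, cgs1 and rst2, with dashed lines at 2-fold. In cyr1 mug14 lies alone at 6.03 and 6.22, while in rst2 the points spread down to -3.03 at 0 min and stay within 2-fold at 60 min.

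Neither of the other strains of the pathway had a mug gene counted at both times. In cgs1, in which protein kinase A lacks its inhibitory subunit, 0 of 91 were counted (0.588% of all features were), and the median mug gene differed by -0.16 at 60 min and 0.19 at 0 min. The mug gene at least 2-fold lower at 60 min was mug24, at -1.20 (1.6% of all features were lower). At 0 min 3 mug genes were at least 2-fold higher (3.30%), against 0.527% of all features: mug72 at 1.30, mug4 at 1.21 and mug112 at 1.03. At 60 min these 3 differed by 0.16, 0.00 and -0.22. The level of mug72 at 0 min also differed along the array series, as given below, and its part in the cgs1 value was not tested. In rst2 0 of 91 were counted as well (0.872% of all features were).

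At 0 min alone, the rst2 array held many mug genes low. With nitrogen, 38 of 91 (41.8%) were at least 2-fold below the other strains, against 10.4% of all features. After 60 min without nitrogen 0 were, against 1.95% of all features. The median mug gene in rst2 differed by -0.09 at 60 min and by -0.78 at 0 min, and the median of all features by 0.03 and -0.04. In 54 of the 91 genes rst2 was the lowest of all strains at 0 min (59.3%), against 20.9% of all features. The meu genes shared it, with 12 of 18 at least 2-fold lower.

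The lowest was mug116, with a level of -0.63 at 60 min and -3.33 at 0 min in rst2, while the next lowest strain at 0 min, ppk11, was at -1.41. In mug112 the levels in rst2 were -0.14 at 60 min and -2.88 at 0 min, and in mug97 they were -0.25 and -2.76. All 3 genes were close to the other strains again at 60 min. Since these genes were picked for a low value at 0 min, their change in rst2 is fixed in direction by that choice. Over all 91 mug genes, the median change in rst2 was 0.98, the largest of all strains.

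The 0 min array of rst2 was also the widest of all: the SD over its features was 0.74, against a mean of 0.33 over strains and 0.51 in the next. With all arrays scaled to the same SD, an alternative chosen after seeing the data, 3 mug genes were at least 2-fold lower (3.30%), against 1.20% of all features. After quantile normalization 13 were (14.3%), against 4.48%. The median difference of the mug genes was then -0.27 with scaling and -0.33 with quantile normalization, against -0.04 and 0.00 for all features. The direction held on each scale and the count did not. The part of this single array in the result was not tested.

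With cyr1 left out, mug24 and mug72 varied most between strains at 0 min, and the levels of mug24 at the 2 times went together. Its protein is predicted to bind RNA. The level of mug24 ranged from -1.15 to 1.71 at 60 min with a median of 0.67, against -2.21 to 1.13 at 0 min with a median of -0.02. The SD over strains was 0.75 at 60 min and 0.74 at 0 min, against median SDs of 0.25 and 0.23 for all features, both without cyr1. Without rst2 as well, the SD at 0 min was 0.69 for mug24 and 0.73 for mug72. Its mean change on nitrogen removal was 0.50 ± 0.49 (SD, n = 62; limma adjusted p = 1.4e-11).

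Over 59 strains without cyr1, cgs1 and rst2, the levels of mug24 at 60 min and 0 min correlated at r = 0.84 (Spearman's rho 0.80), given as a description. It was 0.83 without the 2 strains farthest from the median, 0.88 over the 53 strains without doubted labels, and 0.85 over the 51 without the 8 labels that the arrays do not show. The median r was 0.28 for mug genes and 0.28 for all features. Its arrays fall in 3 stretches of the array series, and in the main one, with 56 strains, mug24 alone spanned -1.15 to 1.71 at 60 min and -1.35 to 1.13 at 0 min.

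Without cyr1, the level of mug24 averaged 0.39 at 60 min and -0.11 at 0 min over the deletion strains. The strains with mug24 at least 2-fold from the others at both times are given with their levels. They were ppk26 (1.71 at 60 min and 0.98 at 0 min) and cki3 (1.39 and 1.02) on the high side. On the low side were wis4 (-1.12 and -1.30), ppk9 (-0.99 and -1.14), wis1 (-0.89 and -1.26) and sck2 (-0.71 and -1.35). Deleted genes among these include wis4, of the stress-activated MAP kinase cascade, and sck2, a kinase related to S6 kinase. In the strain labelled wis1, the gene wis1 itself was at -0.27 from the other strains at 60 min and 0.06 at 0 min, so its arrays do not show that deletion. Together with mug14 in cyr1 and vps15, these 6 made up all 8 cases of a mug gene counted in a strain, over 8 strains. Of all features 0.304% were counted in ppk26, 0.101% in cki3, 0.183% in wis4, 0.0812% in ppk9, 0.203% in wis1 and 0.162% in sck2. Over all pairs of a gene and a strain the share was 0.142% for mug genes and 0.165% for all features.

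The gene whose levels most resembled those of mug24 was rsv1, which encodes a zinc finger transcription factor needed for survival in stationary phase, with r = 0.94 at 60 min and 0.87 at 0 min over 59 strains. Next came SPAC343.20 (r = 0.89 and 0.85) and hen1, which encodes a small RNA methyltransferase (r = 0.88 and 0.81). Among mug genes mug106 (r = 0.84 and 0.85), mug116 (r = 0.83 and 0.79), mug184 (r = 0.77 and 0.72) and mug4 (r = 0.71 and 0.75) were most alike. The points share their arrays, so array effects enter both genes.

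**Figure D5:**
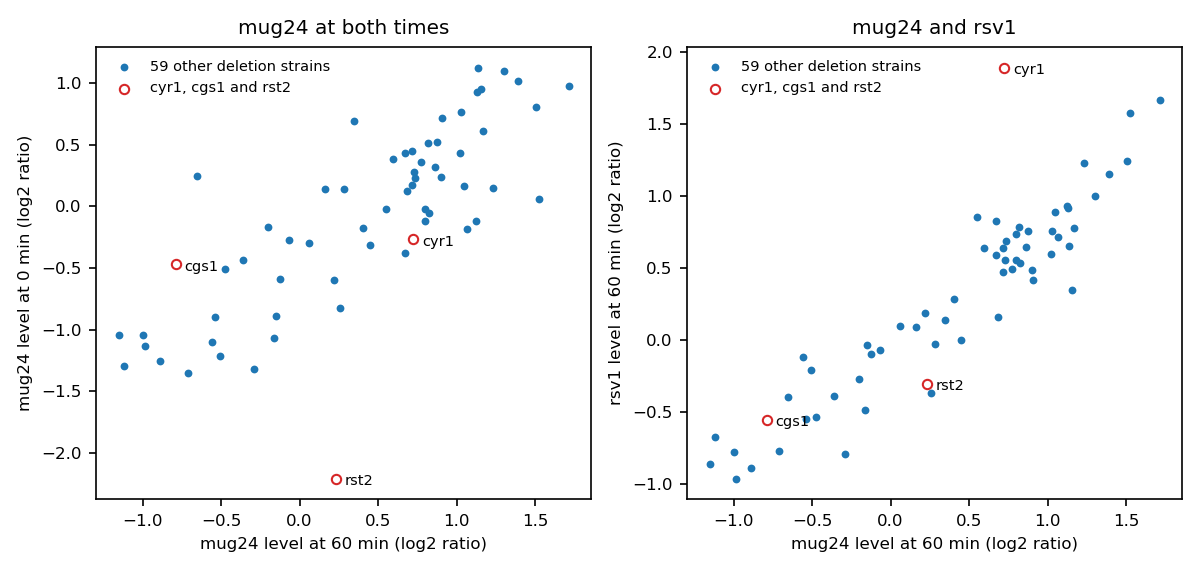
Left, level of mug24 (log2 ratio) at 60 min (horizontal) and 0 min (vertical) in each deletion strain; right, mug24 against rsv1 at 60 min. Filled points are the 59 strains behind r = 0.84 and r = 0.94, and open red points are cyr1, cgs1 and rst2, of which rst2 stands apart at 0 min at -2.21.

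A separate pattern was seen in mug72, which encodes a predicted 2-dehydropantoate 2-reductase, an enzyme of pantothenate synthesis. It ranged from -2.11 to 0.77 at 60 min, against -3.13 to 0.89 at 0 min, with its lowest level in fin1 at 60 min and in cki2 at 0 min. At 0 min the levels of the deletion strains differed by stretch of the array series. The 56 strains of the main stretch averaged -0.75 with a highest level of 0.34, and the 3 of the next stretch averaged 0.78, between 0.57 and 0.89. The wild-type array at 0 min, numbered in that next stretch too, went the other way, at -1.65. In the last stretch, which holds cyr1, cgs1 and rst2, mug72 averaged 0.11 at 0 min over 3 strains, between -0.63 and 0.65. Among mug genes mug163 (r = 0.73 at 60 min and 0.85 at 0 min) and mug57 (r = 0.68 and 0.85) were most like it over 59 strains. Next came mug16 (r = 0.56 and 0.84), mug166 (r = 0.50 and 0.81) and mug42 (r = 0.53 and 0.70). In the 56 strains of the main stretch r was 0.72 and 0.81 for mug163. Over all features the gene nbl1, which encodes a subunit of the chromosomal passenger complex, was first (r = 0.84 and 0.94). The other mug genes with the widest spread over strains were mug147, mug143 and mug14 at 60 min and mug116, mug4 and mug106 at 0 min. The place of mug116 rests on the rst2 array. Without cyr1 its SD at 0 min was 0.57, and without rst2 as well it was 0.43, below that of mug150 at 0.46.

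The deleted gene of 1 strain, mug27, is itself a member and encodes a kinase that acts in forming the spore membrane. Its probes in the mug27 strain differed from the other strains by 0.01 at 60 min and -0.16 at 0 min, so they do not show the deletion. The sources used here do not say where the probes lie relative to the deleted stretch. Over the strains mug27 fell by 0.21 on the log2 scale (SD 0.25, n = 62; limma adjusted p = 9.2e-09). The call was lost with quantile normalization, at -0.05 (limma adjusted p = 0.29), and with the second probe alone, at -0.07 (limma adjusted p = 0.12).

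The median change of the 91 mug genes within a strain was above 0 in 47 of 62 strains. The median over all features was also above 0 in most strains, and lay between -0.02 and 0.17, so the count does not set the mug genes apart. The median of the mug genes was lowest in cgs1, at -0.22, 0.08 in the median strain, and highest in rst2, followed by the strain labelled mde3 at 0.36. In the wild-type pair it was 0.42, against 0.06 for all features, and would rank 62 of 63 from the lowest. In wild type 10 mug genes were at least 2-fold higher at 60 min, against 9.39% of all features, and 0 were as much lower, against 9.98%.

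Among the 10 were 5 of the 6 risers (mug35 changed by 0.94), and also mug72 at 1.78, mug16 at 1.35, mug42 at 1.27, mug30 at 1.27 and mug128 at 1.00. For mug16 the mean over deletion strains was 0.42 ± 0.32 (SD, n = 62), and wild type exceeded all 62. Of these, mug72, mug16 and mug42 are the genes whose levels went together over the deletion strains, and in wild type they were low at 0 min, at -1.65, -0.95 and -1.02. The wild-type arrays stand far apart in the array series and have no replicate. Another label of the 60 min array calls it a deletion. Whether genotype, label or array accounts for the difference cannot be told apart.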

How the data were processed

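Each array holds Cy5-labelled RNA of a strain and Cy3-labelled RNA of a wild-type pool, per the labels. The authors deposited linear ratios of the dyes for 9858 probes on 127 arrays; the sources used here do not give their scaling or background correction, and signal over background is not known, so the number of arrays limits the precision. Values of exactly 0 (6) were set to missing, and log2 ratios were centred on each array's median and averaged over probes. Symbols came from the platform annotation, and all 91 mug symbols are current in the gene table of ASM294v3. Groups follow the array titles, and the 60 min and 0 min arrays of a strain were paired by its name. Strains labelled skp1, prk1 and spm1 are called gsk3, srb10 and pmk1. The change was fitted on paired differences with limma 3.58.1 in R 4.3.3, with Benjamini-Hochberg adjustment over all features with a value in at least 80% of pairs, after a test on simulated data. Python 3.11.15, numpy 2.4.6 and pandas 2.3.3 computed differences from the mean of the other strains and correlations, which carry no p.

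Members, lists and tests were chosen with earlier results of these data known. The text names mug genes past 2-fold, those counted in cyr1, the 5 with the widest SD at each time, those most like them, the 3 nearest to 0 and mug27; genes just outside a threshold, with discordant probes, low in rst2 or high in wild type, and the strains beside them, were picked once their values were known. Alternatives concerned centring, scale, probes, strains, pairing, fold and the fit. Promoter and protein sequences were not analysed here.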

Additional observations from a re-analysis of the deposited data

How the results depend on the processing

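The rise of mug143, mug147, mug182, mug191, mug35 and mug157 kept its direction and its side of the adjusted p in all alternatives run; the count past 2-fold was 4 with quantile normalization, 5 with the first probe and 7 with the second. The count that fell by 2-fold, 1 in the main setting, was 0 with quantile normalization, with the first probe, at 3-fold and among genes whose probes differ by under 1, 4 at 1.5-fold and 6 with the second probe. At adjusted p alone 14 fell with quantile normalization and 14 with the first probe, against 23. With the first probe alone the changes of mug121 (0.81), mug64 (0.81), mug58 (0.57) and mug2 (0.34) were reversed. Without the replicate block, that is without pairing by strain, 44 rose and 20 fell, with 6 and 1 past 2-fold. The 38 genes low in rst2 at 0 min became 13 with quantile normalization and 3 with arrays scaled to equal SD, and with the first probe 1 gene was counted in rst2 at both times. The 8 counts of a gene in a strain became 5 with quantile normalization, 27 with the first probe, 17 with the second and 68 at 1.5-fold. In cyr1 mug14 differed by 3.87 at 60 min and 4.05 at 0 min with quantile normalization, 4.09 at 0 min with equal SD, and 6.59 and 7.30 against cgs1 and rst2, and 2 genes were counted at 1.5-fold and 2 against cgs1 and rst2. The call of mug27 was lost with quantile normalization (-0.05) and with the second probe (-0.07). The other 93 counts and main values kept their side. Scaling to equal SD, the restriction to genes with alike probes, the 8 strains left out for a deleted gene that is not low, the main stretch of arrays for likeness, and the single probes for rst2 and for the counts by strain were alternatives added after seeing the data. The cause of these differences was not tested. Signal over background is not known, so dim probes could not be set apart.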
